A study of Mus musculus with 24 samples.

Results

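The transcriptional response to Zn of mouse C2C12 myoblasts depleted of Baf250a was measured by RNA-seq in 4 libraries of a series of 24. The members were chosen by their titles: 2 *Baf250a* KD libraries treated with 50 µM ZnSO4 and 2 *Baf250a* KD libraries with no added metal (NT). The other lines of the series carried a scrambled control (scr) or KD of *Baf180* or *Brd9*, and each line was grown as NT, with 100 µM CuSO4 or with ZnSO4 in 2 replicates. The 2 *Baf250a* KD Cu libraries and the 4 scr NT and Zn libraries served for comparison. All libraries came from proliferating myoblasts that carried a stably integrated shRNA construct and had been selected with puromycin, so the NT controls shared the KD and the selection. Per the methods the KD lines were pools of lentivirally transduced C2C12 cells, a line derived from mouse muscle satellite cells, whereas the labels describe primary myoblasts and a Lipofectamine-mediated KD. The treatment tag of both NT libraries reads Zn, against their titles and column names, and the groups here followed the titles.

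Zn replicate 2 stood apart in depth. It held 495778 counts, whereas Zn replicate 1 held 14902630, the NT libraries 25700122 and 21041943, and the other 23 libraries of the series between 12719173 and 75179394. In it 12613 genes had a count, against at least 20114 in each of the other libraries, and 1 count was worth 2.02 CPM (counts scaled by TMM to a common library size, the unit of all levels given here). Of the 14706 genes tested, 2440 (16.6%) had a count of 0 there. A gene was therefore reported as having risen or fallen only when it was called (edgeR quasi-likelihood test, Benjamini-Hochberg adjusted p under 0.05) and each Zn library lay on the same side of the mean of the NT libraries as the fitted change. A called and agreeing gene was said to rest on Zn replicate 1 when fewer than 10 counts were observed and expected in Zn replicate 2, or when that library lay within the NT range.

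Zn enters cells through importers of the Slc39 (ZIP) family and leaves the cytosol through exporters of the Slc30 (ZnT) family. Excess Zn is bound by metallothioneins, small cysteine-rich proteins, and is sensed by MTF1, a zinc-finger transcription factor that binds metal response elements. BAF250a, encoded by *Arid1a*, is the AT-rich DNA-binding subunit that defines the canonical BAF form of the SWI/SNF chromatin remodelling complex, and myoblasts are the dividing precursors that exit the cell cycle before they fuse into myotubes.

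The target of the KD was low in all 6 *Baf250a* KD libraries and was not called with Zn. *Arid1a* stood between 92.0 and 143.9 CPM in the *Baf250a* KD libraries and between 266 and 308 CPM in the 6 scr libraries. Within the KD, the level was 99.1 and 97.8 CPM in NT and 90.6 and 149 CPM with Zn, the last from 74 counts, and the fitted difference was 0.01 ± 0.12 on the log2 scale (SE, n = 2 per group, 95% interval −0.25 to 0.26, edgeR adjusted p = 0.982). The Zn libraries straddled the NT libraries. Both hairpins listed for the gene are shown because they place the KD within the transcript, and which of them the sequenced cells carried is not given in the sources used here. The target of hairpin 1 lies in exon 20, in the 3′ untranslated part, at chr4:133679414-133679434, and that of hairpin 2 in the coding part of exon 8 at chr4:133694042-133694062 (GRCm38, both on the minus strand).
Hairpin 1 target: ctttatagtatggcgagttaa
Hairpin 2 target: cctaggcagcctaactataat

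Markers of the labelled cell type were present. Of 7 myoblast markers, *Vim*, *Des*, *Myod1*, *Cdh15* and *Myf5* were detected in all 4 libraries, while *Pax7* and *Msc* had no count in Zn replicate 2. *Pax7*, a marker of quiescent and early satellite cells, stayed at or below 0.92 CPM. The 7 summed to 5839 and 5610 CPM in NT and to 6294 and 6534 CPM with Zn, and 1 of them, *Myf5*, fell. The 8 myotube markers summed to 81.8 and 73.2 CPM in NT and to 71.3 and 80.7 CPM with Zn, with none called. Markers of adipocytes, leukocytes, endothelium, epithelium and neurons were near 0, with *Plin1*, *Lep*, *Ptprc*, *Adgre1*, *Itgam*, *Cdh5*, *Krt18*, *Rbfox3* and *Snap25* at a count of 0 in all 4 libraries. *Cebpa*, listed as an adipocyte marker, was the exception at 24.6 and 21.6 CPM in NT and 30.8 and 32.3 CPM with Zn (edgeR adjusted p = 0.037).

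With Zn, 2334 of 14706 genes (15.9%) were called, 1301 higher and 1033 lower. The Zn libraries agreed for 1966 of them, of which 1013 rose (6.89% of the genes tested) and 953 fell (6.48%). That was 84.2% of the called genes, whereas 54.4% of the genes not called agreed by the same rule. Zn replicate 1 held most of the Zn counts and weighed most in the fitted change, so its own agreement says little. Among the 1966, 1480 were counted in both Zn libraries (848 higher and 632 lower) and 486 rested on Zn replicate 1 (165 higher and 321 lower). The remaining 368 called genes, 288 of them fitted as higher, lay on opposite sides of NT in the Zn libraries and are not reported as changed. Changes were small: 49 of the genes that rose and 228 of those that fell exceeded 2-fold. The count rested heavily on single libraries, with 266 genes called without Zn replicate 1, 3539 without Zn replicate 2 and 768 without NT replicate 2. It also fell to 339 with DESeq2, to 680 with limma voom and quality weights and to 805 when all 24 libraries shared the spread. In bulk RNA, fewer cells of a kind and less RNA per cell cannot be told apart.

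**Figure D1:**
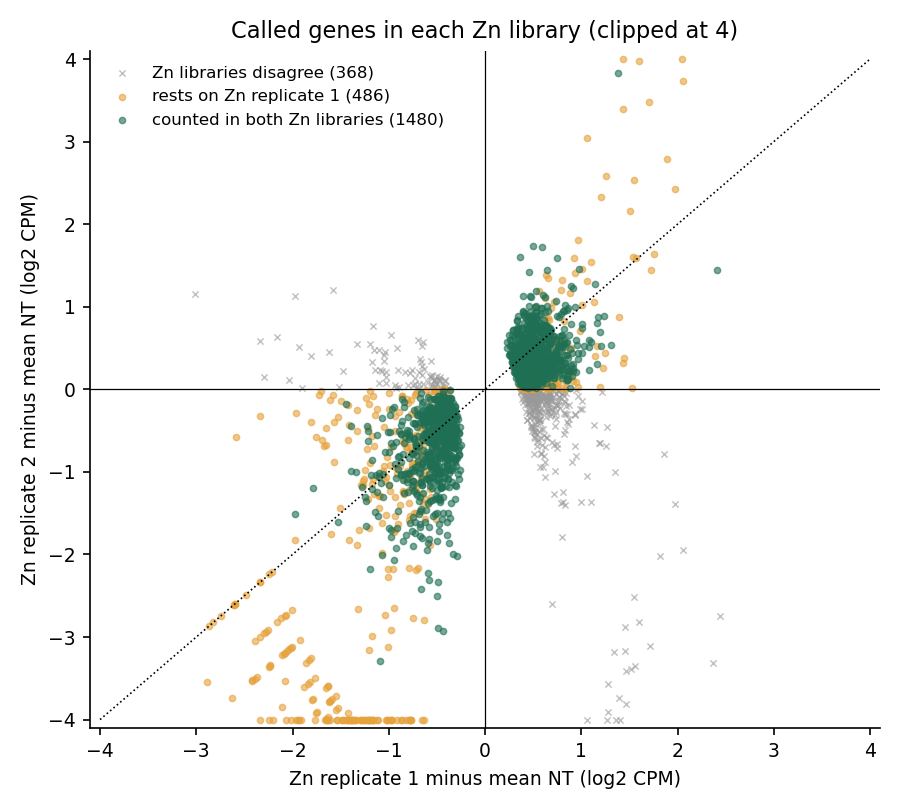
Each of the 2334 called genes is placed by its difference from the mean of the NT libraries in Zn replicate 1 (x axis) and in Zn replicate 2 (y axis), both in log2 CPM and clipped at 4, with the dotted line marking equal differences. The 1480 genes counted in both libraries lie at the upper right and lower left, the 486 resting on Zn replicate 1 include the row of genes at the lower edge with few or no counts in Zn replicate 2, and the 368 disagreeing genes lie at the upper left and lower right.

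Both tested metallothionein genes rose about 2-fold. *Mt1* had 269.95 and 258.6 CPM in NT and 489 and 629.7 CPM with Zn, the last from 312 counts. *Mt2* had 104.9 and 108 CPM in NT and 209 and 293 CPM with Zn, the last from 145 counts. For each gene both Zn libraries lay above both NT libraries, and Zn replicate 2 was the higher of the pair. The log2 change was 1.03 ± 0.11 for *Mt1* (95% interval 0.80 to 1.26, edgeR adjusted p = 2.97e-06) and 1.10 ± 0.11 for *Mt2* (0.87 to 1.34, adjusted p = 1.18e-06). Both calls held in all 17 alternative analyses that gave a value, with adjusted p of at most 0.027 and 0.0087. They lie next to each other on chromosome 8, at 94179082 to 94180327 and 94172664 to 94173568 (GRCm38).

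The Zn transporters did not move as a family. *Slc39a10*, a plasma membrane Zn importer, had 37.8 and 36.7 CPM in NT and 17.8 and 18.2 CPM with Zn, the last from 9 counts where about 18 were expected. Both Zn libraries were below both NT libraries and nearly equal. The gene fell by 1.06 on the log2 scale (SE 0.14, edgeR adjusted p = 2.39e-05), a call lost without Zn replicate 1 (adjusted p = 0.18). *Slc30a1*, the plasma membrane Zn exporter, had 25.2 and 29.1 CPM in NT, 48.7 CPM in Zn replicate 1 and 26.2 CPM in Zn replicate 2. The libraries disagreed, so the fitted change of 0.77 ± 0.14 (edgeR adjusted p = 0.000508) is that of Zn replicate 1 alone. The 13 counts in Zn replicate 2 have an exact Poisson 95% interval of 14.0 to 44.9 CPM, which spans both NT libraries and covers counting error only.

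Of the other 5 Slc30 genes tested, *Slc30a4*, a vesicular exporter, fell by 0.40 on the log2 scale (SE 0.11, 110 and 124 CPM in NT, 90.2 and 78.7 CPM with Zn, edgeR adjusted p = 0.0108), and 4 were not called. Of 10 Slc39 genes, 1 more was called and agreed: *Slc39a7*, which releases Zn from the endoplasmic reticulum, rose by 0.68 ± 0.15 on the log2 scale from 36.2 and 26.0 CPM to 51.9 and 34.3 CPM (edgeR adjusted p = 0.00275). It rested on Zn replicate 1, because Zn replicate 2 lay between the NT libraries. *Mtf1* itself was not called, at 32.7 and 34.3 CPM in NT and 37.9 and 36.3 CPM with Zn (log2 difference 0.17 ± 0.12, 95% interval −0.08 to 0.43, edgeR adjusted p = 0.377). In the list of *Mtf1* and its other target genes, 2 of 10 rose and 2 fell, against 6.89% and 6.48% over all genes. The median log2 change of that list was 0.13 against 0.00 over all genes. Its risers were *Selenow*, a selenoprotein (0.48 ± 0.12, resting on Zn replicate 1), and *Csrp1*, a LIM-domain protein (0.32 ± 0.10, a call kept in 1 of 17 alternatives), and *Hif1a*, the hypoxia-inducible factor subunit, fell by 0.40 (SE 0.11) beside *Slc39a10*. With GC content and length corrected, neither *Hif1a* (−0.14, edgeR adjusted p = 0.47) nor *Slc30a4* (−0.11, adjusted p = 0.47) was called.

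The upstream sequences of the metallothionein genes and of *Slc30a1* are shown because MTF1 is known to act on these genes through metal response elements. The core was searched as TGCACNC and TGCGCNC on both strands in RefSeq promoter windows of 300 bases (250 before and 50 after the annotated start, GRCm38.p6), and matches are in capitals. Only the 250 upstream bases are printed.
*Mt1*, chr8:94178839-94179088, plus strand: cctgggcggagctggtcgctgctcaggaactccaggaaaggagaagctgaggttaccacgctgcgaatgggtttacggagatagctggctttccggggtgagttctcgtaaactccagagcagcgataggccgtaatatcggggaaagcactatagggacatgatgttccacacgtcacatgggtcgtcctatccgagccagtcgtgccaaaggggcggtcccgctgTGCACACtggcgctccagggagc
*Mt2*, chr8:94172368-94172617, plus strand: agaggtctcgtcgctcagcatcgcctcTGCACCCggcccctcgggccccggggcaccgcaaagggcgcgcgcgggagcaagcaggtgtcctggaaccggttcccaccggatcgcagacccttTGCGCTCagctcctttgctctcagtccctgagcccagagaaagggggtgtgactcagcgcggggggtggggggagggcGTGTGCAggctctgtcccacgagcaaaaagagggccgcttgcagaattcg
*Slc30a1*, chr1:191906531-191906780, plus strand: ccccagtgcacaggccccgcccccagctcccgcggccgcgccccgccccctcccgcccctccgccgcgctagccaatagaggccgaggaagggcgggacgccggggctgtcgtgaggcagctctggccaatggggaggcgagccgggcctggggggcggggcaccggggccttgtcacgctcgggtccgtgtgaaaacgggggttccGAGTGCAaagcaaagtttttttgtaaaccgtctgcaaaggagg
The whole window held 3 cores for *Mt1*, 4 for *Mt2* and 2 for *Slc30a1*, of which 1, 3 and 1 lie in the printed bases. Among 32851 promoter windows, 1.97% held at least 3 cores, 0.517% at least 4 and 7.11% at least 2. Both windows of *Slc39a10* held 0 cores, whereas 25.7% of all windows held at least 1. A match is a description of the letters and not a bound site.

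**Figure D2:**
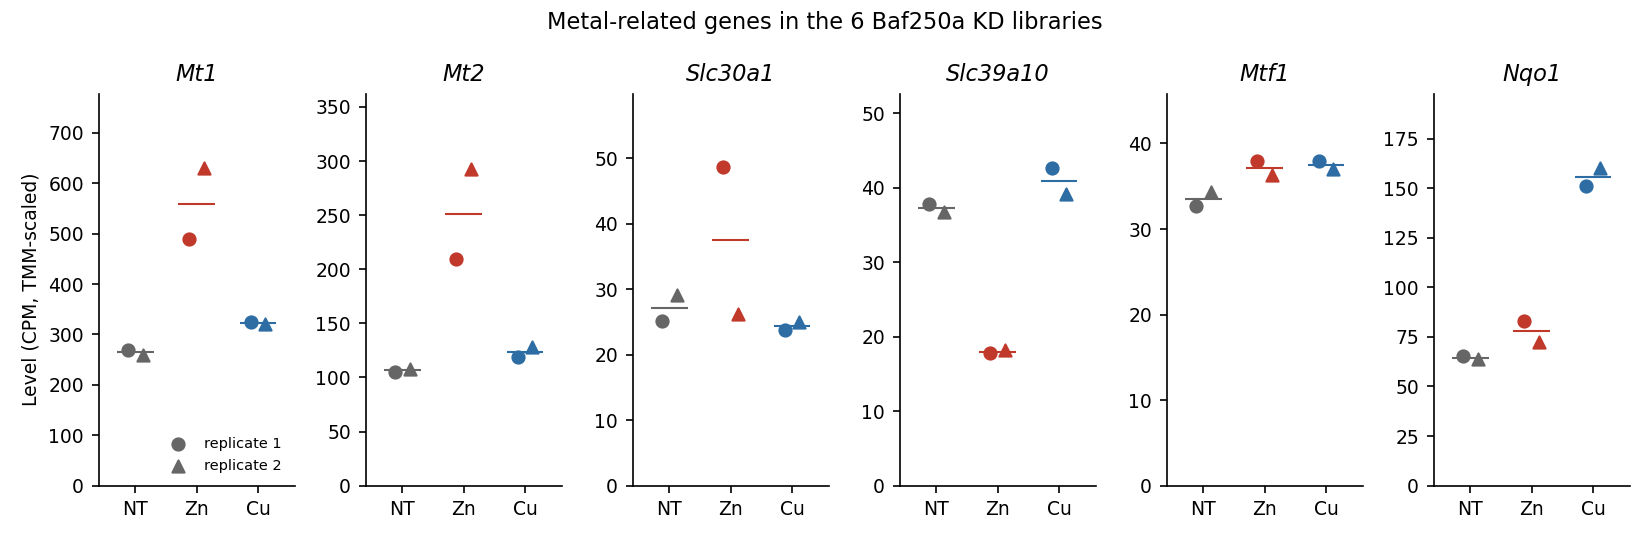
Levels in CPM (TMM-scaled, y axes from 0) of 6 genes in the 6 *Baf250a* KD libraries, with circles for replicate 1, triangles for replicate 2 and a line at each group mean. *Mt1* and *Mt2* were above NT in both Zn libraries and *Slc39a10* was below, *Slc30a1* was raised in Zn replicate 1 and not in Zn replicate 2, and *Nqo1* was highest with Cu.

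Of 20 copper genes tested, 5% rose and 5% fell, shares near the 6.89% and 6.48% over all genes. *Sod1*, the copper- and zinc-dependent superoxide dismutase, rose (118 and 103 CPM in NT, 148 and 166 CPM with Zn, 0.44 ± 0.11, edgeR adjusted p = 0.00582). *Lox*, the copper-dependent lysyl oxidase, fell by 0.39 (SE 0.11, adjusted p = 0.0167). It was not called once GC content and length were corrected for (−0.31, edgeR adjusted p = 0.15). *Atp7a*, the copper exporter, and *Slc31a1*, the copper importer, were not called, with log2 differences of −0.16 ± 0.12 and 0.06 ± 0.11. *Wnt4*, a Wnt ligand, was not called either (20.4 and 22.05 CPM in NT, 18.7 and 26.2 CPM with Zn, −0.14 ± 0.15, edgeR adjusted p = 0.579).

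Genes of DNA replication were often called higher. Of 62 S phase genes tested, 33 rose, none fell and 23 were not called, against 6.89% rising over all genes, and the median log2 change was 0.44, with medians of 0.44 in Zn replicate 1 and 0.29 in Zn replicate 2. *Mcm5*, a subunit of the replicative helicase, had 100.7 and 89.0 CPM in NT and 174 and 149 CPM with Zn (0.83 ± 0.10, edgeR adjusted p = 8.27e-06). *Mcm2*, of the same helicase, had 144 and 139 CPM in NT and 227 and 232 CPM with Zn (0.69 ± 0.10, adjusted p = 4.2e-05). In both genes the Zn libraries were above the NT libraries without overlap. *Lig1*, the replicative DNA ligase, rose by 0.78 ± 0.10 and *Uhrf1*, which couples replication to maintenance of DNA methylation, by 0.72 ± 0.10. Another 6 of the list were called but disagreed between the Zn libraries.

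Mitotic genes rose too, with 30 of 65 higher and 2 lower, against 6.89% and 6.48% over all genes. Their median was 0.37, although the median in Zn replicate 2 was 0.12. *Cdc20*, an activator of the anaphase-promoting complex, had 97.5 and 84.5 CPM in NT and 162 and 184 CPM with Zn (0.86 ± 0.10, edgeR adjusted p = 6.68e-06). *Spc24*, a kinetochore subunit, had 15.5 and 14.6 CPM in NT and 33.7 and 26.2 CPM with Zn (1.13 ± 0.14, adjusted p = 9.45e-06). *Bub1b*, a spindle checkpoint kinase, was at 72.0 and 73.1 CPM in NT, 131 CPM in Zn replicate 1 and 78.7 CPM in Zn replicate 2, so most of its change of 0.76 ± 0.11 came from Zn replicate 1. *Tacc3*, a spindle protein, rose by 0.71 ± 0.11. Without NT replicate 2 the risers numbered 18 in the S phase list and 19 in the mitosis list, and without Zn replicate 1 they numbered 2 in each.

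Replication-dependent histone genes, whose transcripts lack a poly(A) tail and are made in S phase, rose in 20 of 56 cases and fell in none. Their median log2 change was 0.18, with 0.10 in Zn replicate 1 and 0.82 in Zn replicate 2. The shares over all genes were 6.89% rising and 6.48% falling. *H1f1*, a linker histone gene, had 92.8 and 99.8 CPM in NT and 226 and 178 CPM with Zn (1.16 ± 0.10, edgeR adjusted p = 2.32e-07). The histone H4 genes *H4c14*, *H4c12* and *H4c3* rose by 1.00 ± 0.11, 0.97 ± 0.12 and 0.94 ± 0.11. The count was 21 without Zn replicate 2, 20 without NT replicate 2 and 11 without Zn replicate 1, and without Zn replicate 2 another 9 members were called lower. Histone genes are near-identical copies and only uniquely mapped reads were counted, so the split among copies is uncertain.

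Structural genes of chromosomes were divided. In the list of condensin, cohesin and SMC genes 4 of 22 rose and 7 fell, with a median of −0.18. The condensin I subunits *Ncapd2* (117 and 120 CPM in NT, 189 and 196 CPM with Zn) and *Ncaph* rose by 0.68 ± 0.10 and 0.64 ± 0.11. *Nipbl*, the cohesin loader, fell by 0.82 (SE 0.12, 180 and 178 CPM in NT, 105 and 78.7 CPM with Zn), and *Smc6*, of the SMC5/6 complex, fell by 0.60 (SE 0.13). Counts of 4 rising and 1 falling were found when GC content and length were corrected for, and *Smc6* was then not called. The falls numbered 4 without NT replicate 2, 1 without Zn replicate 1 and 1 with voom, and the rises 2 without either NT library and 1 without Zn replicate 1. The median of 54 DNA repair genes was 0.21 in Zn replicate 1 and −0.17 in Zn replicate 2. Of these genes 6 (11.1%) rose and 4 (7.41%) fell, against 6.89% and 6.48% over all genes. They included the mismatch repair gene *Msh6* (0.49 ± 0.10) and *Bard1*, the partner of BRCA1 (0.53 ± 0.12), whereas *Rev3l*, a translesion polymerase, and *Atr*, the replication stress kinase, fell by 0.96 and 0.69, the latter not called with GC content and length corrected (edgeR adjusted p = 0.13). Without Zn replicate 2, 17 repair genes were called higher, without NT replicate 2 only 2 were, and without Zn replicate 1 none.

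Genes of translation and respiration formed the other large group of risers, beside 6.89% rising and 6.48% falling over all genes. Cytosolic ribosomal protein genes rose in 30 of 81 cases and fell in 1, with a median of 0.29. *Rpl11* had 87.3 and 96.5 CPM in NT and 195 and 131 CPM with Zn (0.99 ± 0.12, edgeR adjusted p = 5.62e-06), and *Rpl28*, *Rpl9* and *Rps6* rose by 0.82 ± 0.12, 0.67 ± 0.11 and 0.65 ± 0.11. Ribosomal protein genes have many processed pseudogenes, so their uniquely mapped counts are uncertain. Nuclear genes for oxidative phosphorylation rose in 23 of 77 cases and fell in 2 (median 0.27), led by *Atp5j2*, an ATP synthase subunit, at 46.3 and 43.9 CPM in NT and 102 and 82.8 CPM with Zn (1.13 ± 0.11). *Ndufb7* and *Ndufa9*, of complex I, and *Atp5e*, of ATP synthase, rose by 0.70 ± 0.11, 0.66 ± 0.11 and 0.65 ± 0.11. Mitochondrial ribosomal protein genes rose in 10 of 77 cases and fell in 1 (median 0.21), among them *Mrpl9*, *Mrps23*, *Mrpl21* and *Mrpl28* by 0.66, 0.67, 0.75 and 0.51. Without NT replicate 2 these 3 lists held 12, 11 and 3 risers, without Zn replicate 1 they held 5, 0 and 1, and without Zn replicate 2 the last pair held 40 and 22.

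Of 10 transcripts of the mitochondrial genome tested, 4 fell, 6 were not called and none rose, against 6.48% falling over all genes. Their median was −0.50. *mt-Nd4*, a complex I subunit, had 578 and 727 CPM in NT and 327 and 523 CPM with Zn (−0.72 ± 0.16, edgeR adjusted p = 0.00251). *mt-Cytb*, *mt-Nd1* and *mt-Nd5* fell by 0.71, 0.58 and 0.42. Without NT replicate 2 the list held 2 called falls and without Zn replicate 1 none. All 4 changed sign when GC content and length were corrected for, to between 0.06 and 0.40 with none called, and all mitochondrial genes together took between 0.888% and 1.71% of counts in the 6 KD libraries. The mitochondrial ribosomal RNAs *mt-Rnr1* and *mt-Rnr2* were also lower, at 45.2 and 47.4 CPM against 11.7 and 16.1 CPM (8 counts in Zn replicate 2) and at 45.5 and 66.8 CPM against 23.1 and 22.2 CPM. These are among the RNAs that the library preparation depletes, and *mt-Rnr1* in the Cu libraries was 78.4 and 13.9 CPM.

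Stress responses were partial. NRF2 targets, which serve glutathione and thioredoxin metabolism, rose in 6 of 25 cases and fell in none (median 0.19). Over all genes 6.89% rose and 6.48% fell. *Gsr*, glutathione reductase, had 74.0 and 72.2 CPM in NT and 122 and 96.9 CPM with Zn (0.69 ± 0.10, edgeR adjusted p = 6.12e-05). *Gstp1*, a glutathione transferase, rose by 0.39 ± 0.11 and *Nqo1*, a quinone reductase, by 0.34 ± 0.10 (65.3 and 63.6 CPM in NT, 82.9 and 72.7 CPM with Zn, adjusted p = 0.0254). The *Nqo1* call was lost in 13 of 17 alternatives, including the omission of either NT library. *Txnrd1*, thioredoxin reductase, rested on Zn replicate 1 (0.35 ± 0.11), and its call was kept in 2 of 17 alternatives. *Gsta4*, another glutathione transferase, had 94.98 and 84.05 CPM in NT, 144 CPM in Zn replicate 1 and 80.7 CPM in Zn replicate 2, so the libraries disagreed and no change is reported.

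ATF4 targets rose in 7 of 24 cases and fell in none (median 0.19), against 6.89% rising and 6.48% falling over all genes. All 7 risers were counted in both Zn libraries. The 4 with the smallest adjusted p belong to serine and one-carbon metabolism. *Psat1* had 174 and 166 CPM in NT and 288 and 244 CPM with Zn (0.70 ± 0.10, edgeR adjusted p = 4.92e-05), and *Mthfd2*, *Phgdh* and *Shmt2* rose by 0.64 ± 0.10, 0.58 ± 0.10 and 0.46 ± 0.10. Heat shock chaperones were split, with 4 of 17 higher and 4 lower: *Stip1* and *Hsp90ab1* rose by 0.47 ± 0.10 and 0.46 ± 0.11, and *Hspa4l* and *Hsp90aa1* fell by 0.54 and 0.40. With GC content and length corrected, none of the chaperones rose and 2 fell, and *Hspa4l* was at −0.059 (edgeR adjusted p = 0.81) and *Hsp90aa1* not called. Without NT replicate 2 the chaperone list held 0 rises and 1 fall. Among p53 targets 4 of 24 fell and none rose: *Trp53inp1* (80.7 and 81.5 CPM in NT, 43.6 and 46.4 CPM with Zn), *Eda2r*, *Ccng1* and *Rrm2b* fell by 0.89, 0.61, 0.49 and 0.62, the last resting on Zn replicate 1. The falls numbered 1 without Zn replicate 1 and 2 without NT replicate 2, against 6.48% falling over all genes. *Cdkn1a* and *Mdm2*, both in that list, were not called (log2 differences −0.03 ± 0.11 and −0.04 ± 0.10). In the fit corrected for GC content and length, 3 members of the p53 list fell. *Trp53inp1* was still called there, whereas *Eda2r*, *Ccng1* and *Rrm2b* were not (edgeR adjusted p = 0.085, 0.35 and 0.38). Without Zn replicate 1 the NRF2 list held 1 riser and the ATF4 list 0, and without NT replicate 2 they held 2 and 4. Of 25 immediate early genes, *Ier2* (0.70 ± 0.11) and *Ier5* (0.34 ± 0.11) rose and none fell, a share near the 6.89% over all genes. The call of *Ier5* was kept in 2 of 17 alternatives, and 1 gene of the list rose without Zn replicate 1 or without either NT library.

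Myogenic regulators fell in 5 of 20 cases and rose in none, against 6.48% falling over all genes, with a median of −0.10. The falls numbered 0 without Zn replicate 1, 2 without NT replicate 2, 3 without NT replicate 1 and 2 with voom. *Myf5*, a determination factor of the MyoD family, had 36.6 and 39.4 CPM in NT and 22.8 and 16.1 CPM with Zn, the last from 8 counts (−0.77 ± 0.14, edgeR adjusted p = 0.000458). The HLH inhibitors *Id2* and *Id3* fell by 0.50 and 0.40 and the MADS-box factor *Mef2a* by 0.38. *Mef2a* was not called once GC content and length were corrected for (−0.15, edgeR adjusted p = 0.36). *Myod1* was not called (151 and 134 CPM in NT, 123 and 141 CPM with Zn, −0.18). Of 31 sarcomere and fusion genes, 3.23% rose and 6.45% fell, against 6.89% and 6.48% over all genes. *Tnnt2*, a troponin, rose (29.3 and 26.9 CPM in NT, 57.2 and 40.4 CPM with Zn). *Ttn* and *Neb*, encoding giant sarcomere proteins, fell on the strength of Zn replicate 1, with 0 counts of *Neb* in Zn replicate 2. *Ttn* was not called once GC content and length were corrected for (−0.45, edgeR adjusted p = 0.14).

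Matrix genes fell in 7 of 38 cases and rose in 2 (median 0.03), against 6.48% and 6.89% over all genes. The falls numbered 3 without NT replicate 2 and 3 without Zn replicate 1, and the rises 0 without either NT library. *Ogn*, a small leucine-rich proteoglycan, had 269.6 and 391.7 CPM in NT and 94.4 and 141 CPM with Zn (−1.69 ± 0.19, edgeR adjusted p = 4.84e-06), the largest fall of a protein-coding gene counted in both Zn libraries. *Postn*, a matricellular protein, *Prelp*, a proteoglycan, and *Col12a1*, a fibril-associated collagen, fell by 0.79, 0.62 and 0.37. With GC content and length corrected, *Postn* was at −0.093 (edgeR adjusted p = 0.65) and *Col12a1* was not called either. Of 33 genes of Wnt signalling, the receptors *Lgr4* and *Fzd5* fell by 0.43 and 0.37, *Sfrp2*, a secreted antagonist, fell by 0.34 on the strength of Zn replicate 1, and none rose. That share is near the 6.48% over all genes, and no gene of the list fell without NT replicate 2, without Zn replicate 1 or with voom. Among SWI/SNF subunits 2 of 26 rose and 2 fell, shares near the 6.89% and 6.48% over all genes. *Actl6a* rose by 0.41 ± 0.11 and *Dpf1*, at 7 counts in Zn replicate 2, rested on Zn replicate 1, while the PBAF subunits *Pbrm1* (202 and 221 CPM in NT, 152 and 119 CPM with Zn) and *Arid2* fell by 0.54 and 0.35, neither called with GC content and length corrected.

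The remaining lists had few calls, against 6.89% rising and 6.48% falling over all genes. Sterol synthesis genes rose in 3 of 25 cases (among them *Acat2* and *Lss*, by 0.39 and 0.36). Genes of the glycolysis list rose in 3 and fell in 2 of 25 cases. *Pfkp* and *Pkm* were higher by 0.55 and 0.43, and *Pgam1* and *Bnip3* lower by 0.47 and 0.38. *Bnip3* is not a glycolytic enzyme, and it was not called with GC content and length corrected (−0.13, edgeR adjusted p = 0.53). Interferon-stimulated genes rose in 2 and fell in 1 of 24 (*Ifi35* and *Ifi27* higher, *Eif2ak2* lower). The sterol rises numbered 9 without Zn replicate 2 and 0 without NT replicate 2 or Zn replicate 1, the glycolysis rises 11 and 0 likewise, and the interferon rises 0 without either NT library or Zn replicate 1. The call of *Lss* was kept in 1 of 17 alternatives and that of *Acat2* in 4. Of 17 RNA polymerase III and structural RNA genes, the ribosomal RNA copy *CT010467.1* was called. It stood at 1101 and 825 CPM in NT, 1223 CPM in Zn replicate 1 and 2898 CPM in Zn replicate 2. Its fitted log2 change of 1.05 came mostly from Zn replicate 2 and was 0.34 without that library. DESeq2, voom and the correction for GC content and length each lost the call.

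**Figure D3:**
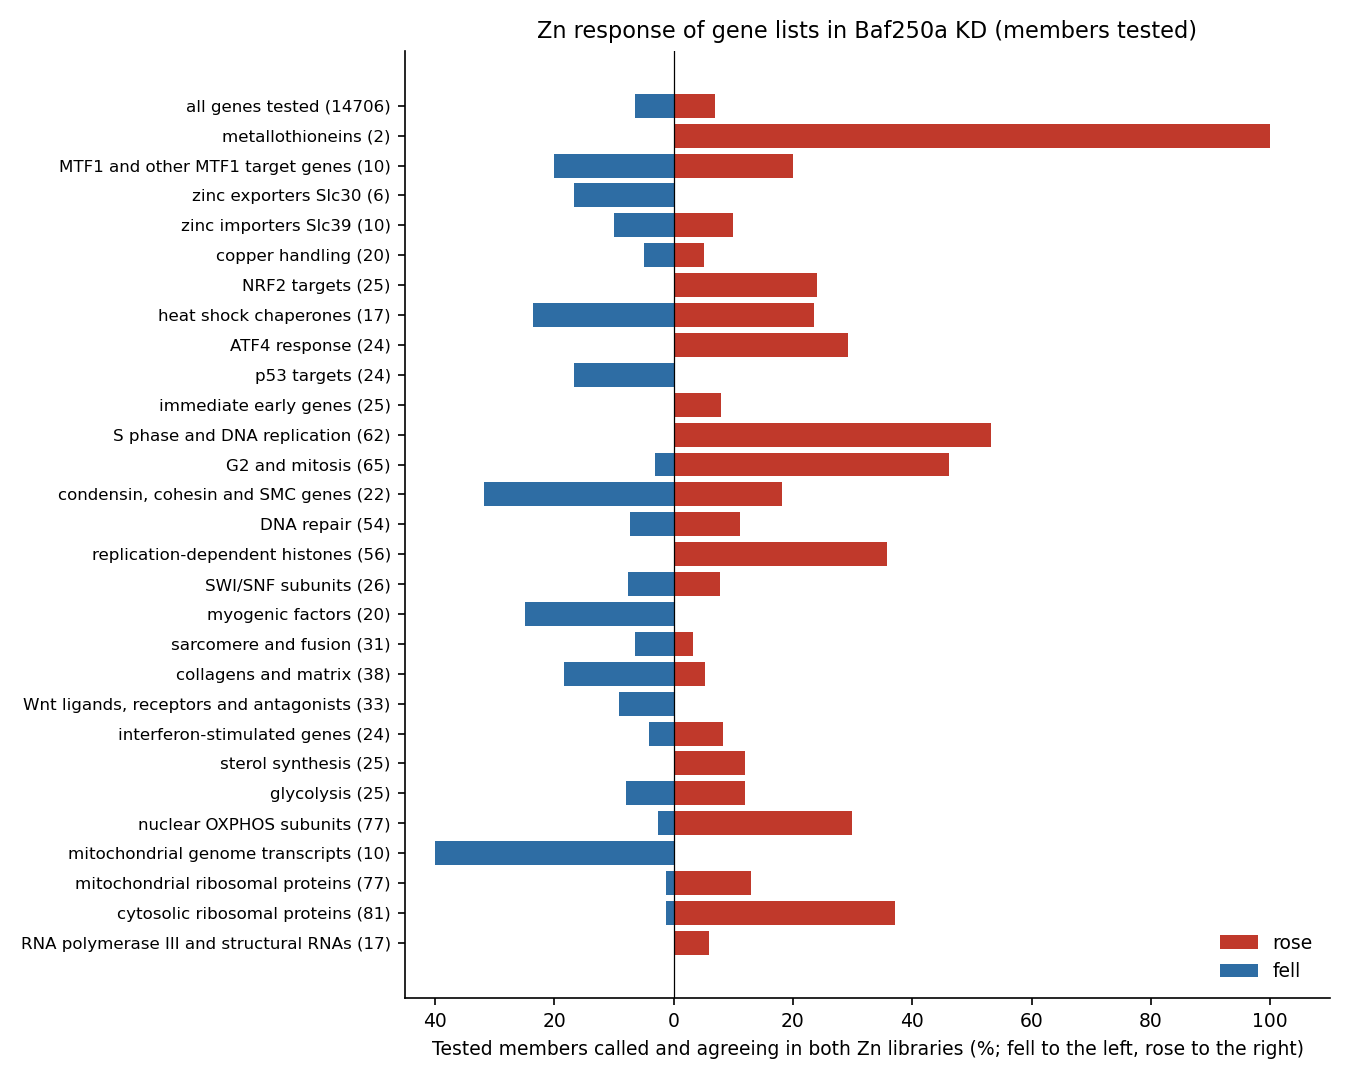
For each gene list, with the number of members tested in brackets, bars show the percentage of tested members that were called and agreed between the Zn libraries, higher to the right in red and lower to the left in blue. All genes tested stand at the top with 6.89% higher and 6.48% lower, and the S phase, mitosis, histone and ribosomal protein lists reach further to the right.

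Unnamed gene models and small or ribosomal RNAs of the nuclear genome left aside, the 10 largest rises counted in both Zn libraries lay between 1.06 and 1.21 on the log2 scale. They were picked among genes with both Zn libraries above both NT libraries. *Stmn1*, the microtubule-destabilising protein stathmin, had 41.3 and 34.4 CPM in NT and 93.2 and 54.5 CPM with Zn (1.21 ± 0.13, edgeR adjusted p = 2.68e-06). *Alyref*, an mRNA export adaptor, had 109 and 90.9 CPM in NT and 230.1 and 143 CPM with Zn (1.08 ± 0.12), and *Nek2*, a centrosomal kinase, 52.0 and 46.4 CPM in NT and 110 and 60.6 CPM with Zn (1.06 ± 0.12). In these 3 genes Zn replicate 1 was well above Zn replicate 2. *Chtf8*, of the alternative clamp loader for sister chromatid cohesion, *Pfdn6*, a prefoldin chaperone, and *Hmga1*, an architectural chromatin protein, rose by 1.147 ± 0.18, 1.147 ± 0.14 and 1.06 ± 0.14 from 12 to 14 counts each in Zn replicate 2. The others were *H1f1*, *Atp5j2*, *Spc24* and *Mt2*.

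The largest falls were deeper. After *mt-Rnr1* and *Ogn* came *Arhgap5*, a GTPase-activating protein, at 112 and 123 CPM in NT and 40.6 and 38.3 CPM with Zn (−1.54 ± 0.14, edgeR adjusted p = 2.41e-07). *Sh3bgrl*, a small SH3-binding protein, had 93.6 and 126 CPM in NT and 41.4 and 54.5 CPM with Zn (−1.37 ± 0.16). Zn libraries below both NT libraries were a condition of the choice of these falls. *Nbeal1*, *Ptpn4*, *Zfp638* and *Rbis* fell by 1.32, 1.32, 1.27 and 1.36, and for *Rbis* Zn replicate 2 (18.2 CPM, 9 counts) was only just below NT (19.6 and 21.6 CPM). Corrected for GC content and length, *Arhgap5* fell by 0.55 and *Sh3bgrl* by 0.72, and both were still called, whereas neither was called when all 24 libraries shared the spread (adjusted p = 0.12 and 0.11). Without Zn replicate 1 the call of *Sh3bgrl* was lost too (adjusted p = 0.14).

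Some larger fitted changes rested on Zn replicate 1. *Gsta2*, a glutathione transferase, had 0.23 CPM in each NT library, 0.82 CPM in Zn replicate 1 and 3 counts in Zn replicate 2 (edgeR adjusted p = 0.0432). *Tnni3*, the cardiac troponin I, and *Rom1*, a photoreceptor membrane protein, had 2 counts and 1 count in Zn replicate 2. For *Gsta2* and *Tnni3* these few counts raised the fitted log2 change, which was 2.19 and 2.08 with both Zn libraries. It was 1.80 and 1.89 without Zn replicate 2, and 4.62 and 3.72 without Zn replicate 1. *Zfp457* was at 0.42 and 0.70 CPM in NT and at 0 counts in both Zn libraries, *Plekhg6* went from 1.26 and 0.93 CPM to 0.14 CPM and *Il13ra2* from 0.61 and 0.84 CPM to 0.07 CPM, both with 0 counts in Zn replicate 2, where 1 count is worth 2.02 CPM. At that depth Zn replicate 2 could not show a fall of any of these 3.

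Base composition moved with the Zn difference in both Zn libraries. Across 7955 protein-coding genes with at least 10 counts observed or expected in Zn replicate 2, which share their libraries and are not independent replicates, Spearman's correlation with exonic GC content was 0.31 in Zn replicate 1 and 0.44 in Zn replicate 2. With transcript length it was −0.33 and −0.27. The 967 protein-coding genes that rose had a median GC content of 52.6% and a median length of 2580 bases, and the 797 that fell had 41.4% and 5158 bases, against 49.8% and 3468 bases over all tested. In the tenth of genes lowest in GC content the median difference was −0.27 in Zn replicate 1 and −0.48 in Zn replicate 2. After correction for GC content and length 1623 genes were called, of which 878 were among the 1966 reported here. The part of base composition in the falls was not tested beyond this correction. The S phase and mitosis lists had median GC contents of 48.6% and 46.4%, below that of all genes at 49.2%. With the correction 28 and 25 of their members were called higher. The histone, cytosolic ribosomal protein and oxidative phosphorylation lists had higher medians, at 58.9%, 50.9% and 50.2%. Their median lengths were 618, 1106 and 1129 bases, against 3150 over all genes. After the correction 18, 25 and 25 members of these lists were called higher. Of the named genes that rose, 18 of 70 lost their call with the correction, and of those that fell, 29 of 53 did.

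**Figure D4:**
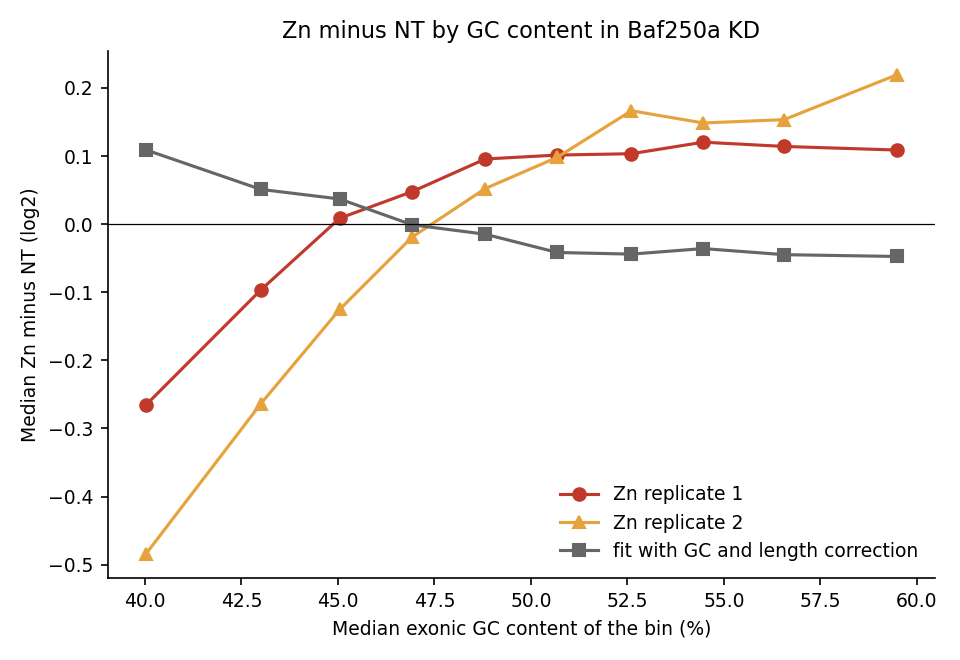
Protein-coding genes were divided into 10 bins of exonic GC content (x axis, bin median in %), and the median Zn minus NT difference (y axis, log2) is drawn for Zn replicate 1, Zn replicate 2 and the fit corrected for GC content and length. Both Zn libraries climb from −0.27 and −0.48 in the lowest bin to 0.11 and 0.22 in the highest, and the corrected values run from 0.11 to −0.05.

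The Cu libraries allow the Zn response to be set against that to another metal. Zn and Cu in *Baf250a* KD cells differed in 2167 genes, of which 908 were higher with Zn in both Zn libraries (6.17% of 14706) and 872 lower (5.93%). These values share the Zn libraries with the comparison against NT, and the doses differ. The total was 998 without Cu replicate 1, 215 without Zn replicate 1 and 3508 without Zn replicate 2. *Mt1* and *Mt2* were at 326 and 321 CPM and at 119 and 128 CPM with Cu, below both Zn libraries (0.74 ± 0.11 and 0.89 ± 0.11 higher with Zn). *Slc39a10* was at 42.6 and 39.1 CPM with Cu (−1.20 ± 0.14 with Zn against Cu, edgeR adjusted p = 9.6e-06).

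The NRF2 list lay lower with Zn than with Cu. Of 25 tested, 13 were lower with Zn than with Cu in both Zn libraries and none higher, with a median of −0.43. Over all genes 5.93% were lower and 6.17% higher. *Nqo1* reached 151 and 160 CPM with Cu, against 82.9 and 72.7 CPM with Zn (−0.93 ± 0.10, edgeR adjusted p = 7.4e-06), whereas *Gsr* was not called (113 and 112 CPM with Cu, 0.07 ± 0.10). S phase genes were higher with Zn than with Cu in 23 of 62 cases and lower in 1, mitotic genes in 24 of 65 and 1, histone genes in 18 of 56 and 0, and ATF4 targets in 10 of 24 and 2. Mitochondrial genome transcripts were lower with Zn in 6 of 10 cases. These list counts also stand beside 6.17% higher and 5.93% lower over all genes. Their dependence on single libraries was not computed list by list. The most positive differences by the rule for named genes were those of *Snord15a*, a small nucleolar RNA (1.36 ± 0.20), *Enpp3*, an ectonucleotidase (1.34 ± 0.21, which was not called against NT), *Gm5898* (1.28 ± 0.21) and *Spc24* (1.23 ± 0.14). The most negative were *mt-Rnr1*, *Gm38211*, *Rbis* and *Gm37589*, by −1.98 to −1.65. For *mt-Rnr1* the Cu libraries were 78.4 and 13.9 CPM, and Cu replicate 2 lay between the Zn libraries, so that difference came from Cu replicate 1.

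The scr cells give the Zn response of myoblasts with *Arid1a* intact. The scr NT libraries stood apart: the ribosomal RNA copy *CT010467.1* took 48156 and 17255 CPM there, against 1146 and 1092 CPM in scr Zn and between 833 and 2792 CPM in the *Baf250a* KD NT and Zn libraries, and the 10 most abundant genes took 11.1% and 8.49% of their counts, against 6.12% to 7.01% in the KD. Every difference from scr rests on these 2 libraries. In the fit of all 24 libraries, the Zn response in *Baf250a* KD minus that in scr was called for 5036 of 16524 genes, with 2562 higher (15.5%) and 2162 lower (13.1%) in both Zn libraries. It was called for 3012 without scr NT replicate 2, for 1102 without *Baf250a* KD Zn replicate 1 and for 2720 once GC content and length were corrected for.

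Metallothionein induction was smaller in the KD, from a higher starting level. *Mt1* had 55.2 and 65.1 CPM in scr NT and 312 and 284 CPM in scr Zn, and on the same scale 273 and 261 CPM in *Baf250a* KD NT and 496 and 607 CPM in *Baf250a* KD Zn. The response was 2.31 ± 0.18 in scr and 1.02 ± 0.18 in the KD, a difference of −1.29 ± 0.25 (edgeR adjusted p = 0.000912). *Mt2* had 18.2 and 20.8 CPM in scr NT and 198 and 190 CPM in scr Zn, and 106 and 109 CPM in KD NT, with responses of 3.31 ± 0.13 and 1.13 ± 0.13 (difference −2.18 ± 0.18, adjusted p = 1.65e-06). The untreated KD libraries were thus near the treated scr level for *Mt1* and between both scr groups for *Mt2*. The treated KD libraries were above the scr NT and scr Zn libraries. A smaller response than in scr was not particular to this KD. For *Mt1* it was 1.30 ± 0.17 in *Baf180* KD and 1.57 ± 0.17 in *Brd9* KD. For *Mt2* it was 1.73 ± 0.12 and 2.13 ± 0.12, and the differences of these lines from scr were not tested. *Slc30a1* had 10.8 and 11.4 CPM in scr NT, 29.9 and 27.03 CPM in scr Zn and 25.5 and 29.4 CPM in *Baf250a* KD NT. Its *Baf250a* KD Zn libraries disagreed. *Slc39a10* was not called for a difference in response, with 38.7 and 33.5 CPM in scr NT and 18.6 and 18.3 CPM in scr Zn (difference −0.09 ± 0.18, 95% interval −0.47 to 0.29, edgeR adjusted p = 0.739).

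**Figure D5:**
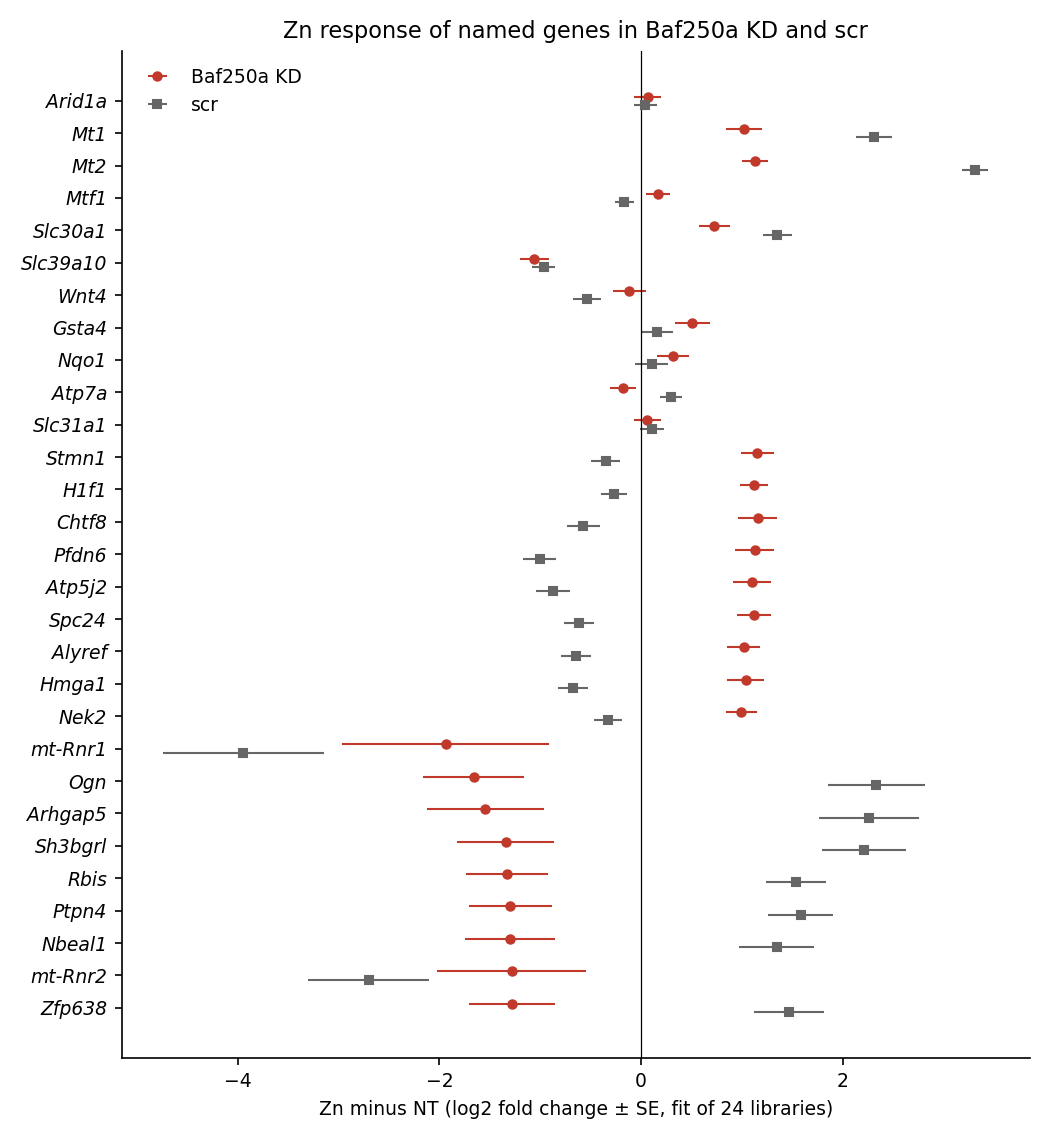
The Zn response (log2 fold change ± SE, Zn minus NT, 2 libraries per group, fit of 24 libraries) of the 11 fixed genes and of genes among the largest rises and falls, in red circles for *Baf250a* KD and grey squares for scr. *Mt1* and *Mt2* were induced more in scr, *Slc39a10* had responses of −1.06 and −0.97, and the plotted rises and falls other than *Mt2*, *mt-Rnr1* and *mt-Rnr2* lay on opposite sides of 0 in the 2 lines.

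The replication and growth lists differed from scr mainly upwards. The Zn response was higher in the KD for 32 of 62 S phase genes and lower for 4, higher for 51 of 81 cytosolic ribosomal protein genes and lower for 2, and higher for 46 of 77 oxidative phosphorylation genes and lower for 1, against 15.5% and 13.1% of all genes. Median responses of the S phase list were 0.42 in the KD and −0.07 in scr. For the cytosolic ribosomal protein list they were 0.27 and −0.44, and for the oxidative phosphorylation list 0.24 and −0.41. In those lists the median moved further in scr than in the KD. Mitotic genes were mixed, with 23 of 65 higher and 15 lower. Condensin, cohesin and SMC genes were lower in 15 of 22 cases and higher in 3, with median responses of −0.21 in the KD and 0.80 in scr. Relative to scr NT, the S phase list had a median log2 difference of −0.58 in KD NT and −0.04 in KD Zn, and the mitosis list −0.51 and −0.18, against 0.04 and 0.00 over all genes. These comparisons share the scr NT libraries and are given side by side without a test. For the cytosolic ribosomal protein list the medians were −0.85 and −0.53, and for the histone list −1.11 and −0.83.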

How the data were processed

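RNA-seq of 24 libraries was used as gene counts. The authors depleted ribosomal RNA by RNase H, made directional paired-end libraries, aligned to mm10 with STAR keeping unique alignments, and deposited raw counts per gene from featureCounts with reverse strandedness. Their deposited DESeq2 comparisons (fold changes and p-values) were not used. Every column of the count table was matched to a title, and 53708 of 55291 symbols matched GENCODE M21.

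Counts were filtered by filterByExpr, scaled by TMM and tested with edgeR 4.0.16 (R 4.3.3, quasi-likelihood, Benjamini-Hochberg adjusted p under 0.05, prior count 2). The 6 *Baf250a* KD libraries were fitted together, and all 24 for differences from scr. Lists were counted for genes called and agreeing in both Zn libraries. Named genes were 11 fixed genes, the 10 largest rises and 10 largest falls, the 4 smallest adjusted p per list, the 3 largest rises and falls resting on Zn replicate 1, and the 4 most positive and negative differences from Cu and from scr. The 10 largest rises and falls were taken only from genes with both Zn libraries beyond both NT libraries. Other genes named were chosen after their values were seen. The members, the 28 gene lists and the rule were chosen with earlier results of these data known. Alternatives were DESeq2 1.42.0, limma 3.58.1 voom, other scalings and filters, a replicate block, GC content and length correction (splines of 5 df), thinning, a minimum fold of 1.5 and leaving out libraries. The scripts were tested on simulated data. Totals ranged from 495778 to 75179394 counts. The p-values rest on a spread pooled over groups of 2 independent replicates and across genes (24.7 degrees of freedom in the fit of 6 libraries). They do not measure the spread of the 2 Zn libraries alone, and *Slc30a1* was called although those libraries disagreed. Some genes that the rule named are not reported here.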

Additional observations from a re-analysis of the deposited data

Results flagged for a closer look

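Each of the following results had a Zn response that differed between *Baf250a* KD and scr by a test of the difference itself (edgeR quasi-likelihood test, adjusted p under 0.05, fit of 24 libraries). All rest on the 2 scr NT libraries, which held far more ribosomal RNA than the others, and the part of that in the differences was not tested. Over all genes, 5036 of 16524 were called for this difference. The largest rises and falls were picked by the change in the KD, and the same KD libraries enter the difference. That choice favoured a difference, so these tests add no separate support. The most positive and most negative genes were picked by the difference itself. Differences are on the log2 scale, KD minus scr. Among the metal genes they were −1.29 for *Mt1*, −2.18 for *Mt2* and −0.47 for *Atp7a*. Among the largest rises they were 1.51 for *Stmn1*, 1.39 for *H1f1*, 1.73 for *Chtf8*, 2.13 for *Pfdn6*, 1.97 for *Atp5j2*, 1.74 for *Spc24*, 1.66 for *Alyref*, 1.71 for *Hmga1* and 1.32 for *Nek2*. Among the largest falls reported here they were −3.995 for *Ogn*, −3.81 for *Arhgap5*, −3.56 for *Sh3bgrl*, −2.86 for *Rbis*, −2.88 for *Ptpn4*, −2.64 for *Nbeal1* and −2.75 for *Zfp638*. The most positive differences were 12.85 for *Mir6236*, 9.08 for *Gm23935*, 5.89 for *CT010467.1* and 4.34 for *CT010467.2*, 4 genes named for small or ribosomal RNAs or unnamed models. The most negative were −5.12 for *Omd*, a small leucine-rich proteoglycan, −4.33 for *Gm38253* and −4.27 for *Gm43484*, beside *Ogn*.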

How the results depend on the processing

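Zn replicate 2, with 495778 counts, limited what could be seen. Of genes called with Zn against NT (2334, and 1966 agreeing in both Zn libraries), DESeq2 called 339 and 339, voom 680 and 622, thinning to the smallest total 76 and 76, a minimum fold of 1.5 left 42 and 38, and all 24 libraries gave 805 and 721. Zn against Cu gave 270, 650, 60 and 15 under the first 4 of these. The difference from scr gave 2720 with GC content and length corrected, 872 thinned and 1102 with the minimum fold. Genes counted in both Zn libraries numbered 880 with a minimum of 30 counts. Leaving out 1 library gave 266 to 3539 calls against NT, 654 to 1719 agreeing (not computed without a Zn library), 215 to 3508 against Cu and 1102 to 5348 for the difference from scr. A lone library was assumed to vary like the other groups. Higher genes made up 55.7% of calls against NT, but 66.6% with voom, 72.0% with all 24 libraries and 42.7% and 42.5% without Cu replicate 1 or 2. The replicate numbers share only a number: deviations of same-numbered libraries correlated at −0.06 (NT and Cu), 0.12 (NT and Zn) and 0.15 (Cu and Zn) over 8056 genes, and a replicate block gave 1851, 1608, 1715 and 5159 calls. Signs of some log2 differences turned. *Arid1a* was −0.021 with RLE, −0.0099 with all genes, −0.039 with voom and −0.13 with GC content and length corrected, and lay between −0.12 and 0.55 with 1 library left out. Over the same omissions *Slc30a1* ran from −0.094 to 0.86, *Wnt4* from −0.19 to 0.26, *Gsta4* from −0.20 to 0.68 and *Txnrd1* from −0.019 to 0.47, with the turned value the one without Zn replicate 1. Thinned, *Atp7a* was 0.35, *Id2* 0.028, *Sfrp2* 0.0057 and *Mrps23* −0.12. GC-corrected, *mt-Nd4* was 0.29, *mt-Cytb* 0.057, *mt-Nd1* 0.35 and *mt-Nd5* 0.40. The causes were not tested.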
